A study of Mus musculus with 12 samples.

Results

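In all, 10 genes that encode subunits of chromatin-remodelling complexes were described in mouse oocytes that lacked ZAR1 and ZAR2, a pair of oocyte RNA-binding proteins, and in wild-type (WT) oocytes. The 10 members, Smarca4, Smarca5, Smarcb1, Smarcc1, Smarcc2, Smarcd1, Smarce1, Arid1a, Arid2 and Chd4, were chosen by name from 23230 genes in the expression table. Of these members, 9 passed the filter of at least 1 FPKM in at least 1 library that 11502 genes passed, and Smarcd1 did not. FPKM is a level corrected for transcript length and for the number of mapped fragments, so levels can be compared between genes of different length.

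Chromatin remodellers use the energy of ATP to slide, eject or exchange nucleosomes. SWI/SNF complexes are built around an ATPase, SMARCA4 or its paralog SMARCA2, with shared core subunits and a variable subunit that sets the complex type, while SMARCA5 and CHD4 are the ATPases of the ISWI and NuRD families. Oocytes store the transcripts they make during growth, transcription is silent in fully grown oocytes, and a large part of the stored RNA is degraded during meiotic maturation.

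RNA sequencing was done on growing oocytes, on fully grown oocytes that still had their germinal vesicle (GV) and on ovulated oocytes, called MII, with 2 libraries in each of the 6 combinations of stage and genotype and 10 oocytes in each library. All females were of a C57BL6/ICR hybrid strain, and no treatment is named other than hormones before the collection of GV and MII oocytes. WT growing and Zar1/2-null growing oocytes came from females aged 13.5 days by the labels, although the methods of the study give a slightly younger age. WT GV and Zar1/2-null GV oocytes came from females aged 21 days, 44 h after the gonadotropin PMSG. WT MII and Zar1/2-null MII oocytes were collected 16 h after the ovulatory hormone hCG. The labels give no age or PMSG for MII. By the study's methods, superovulated females were aged 21 days or slightly more and received PMSG 44 h before hCG. The null oocytes carried CRISPR/Cas9 deletions behind the start codons of both genes in the whole animal, so the effect of the oocyte itself and that of the other tissues cannot be told apart. The study described meiosis I arrest in ovulated null oocytes, so genotype and meiotic stage cannot be told apart in the MII comparison. The study also held maturing oocytes in meiosis I with nocodazole and found by RT-qPCR that decay of selected mRNAs was unaffected. From this it proposes that the delayed decay in null oocytes came from the loss of ZAR1/2. No nocodazole-treated oocytes are among the 12 libraries. Libraries were made by Smart-seq2, which primes on poly(A) tails, and for that reason fewer transcripts and shorter tails cannot be told apart.

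The transcript of Zar1l, the table's name for the Zar2 gene, averaged 642 FPKM in WT growing and 15.3 FPKM in Zar1/2-null growing oocytes, 519 and 20.3 FPKM at GV, and 3.92 and 1.19 FPKM at MII. Zar1 transcript stayed detectable at 433, 169 and 192 FPKM in the 3 null groups, against 664, 431 and 78.0 FPKM in WT. The authors multiplied each library by a factor from its share of ERCC spike-in reads, which could be recovered from the values and ran from 0.225 to 1. All 12 oocyte markers averaged at least 1 FPKM in every group except WT MII, where 11 did. The summed level of 16 granulosa and cumulus cell markers was 24.1 to 27.6 FPKM in WT growing and 6.41 to 11.6 FPKM in null growing libraries, and between 4.30 and 16.4 FPKM in the other groups. That of 9 blood and immune cell markers was 0.498 to 3.31 FPKM over all libraries.

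Members differed widely in level in WT growing oocytes, with the core subunits Smarcb1 and Smarce1 at the top and the subunits Smarcc2 and Smarcd1 at the bottom. The means ran from 68.4 FPKM for Smarcb1 through 31.0 for Smarce1, 29.4 for Smarca5, 23.1 for Arid1a, 11.3 for Arid2, 10.4 for Chd4, 5.32 for Smarca4, 2.54 for Smarcc1 and 0.750 for Smarcc2 down to 0.181 FPKM for Smarcd1. The libraries of Smarce1 and Smarca5, and those of Arid2 and Chd4, overlapped at this stage, so neither of these neighbours could be put in order. In WT MII oocytes the order had changed, with Smarca5 at 16.7 FPKM and Arid1a at 15.01 FPKM ahead of all other members and Smarcb1 at 3.44 FPKM.

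**Figure D1:**
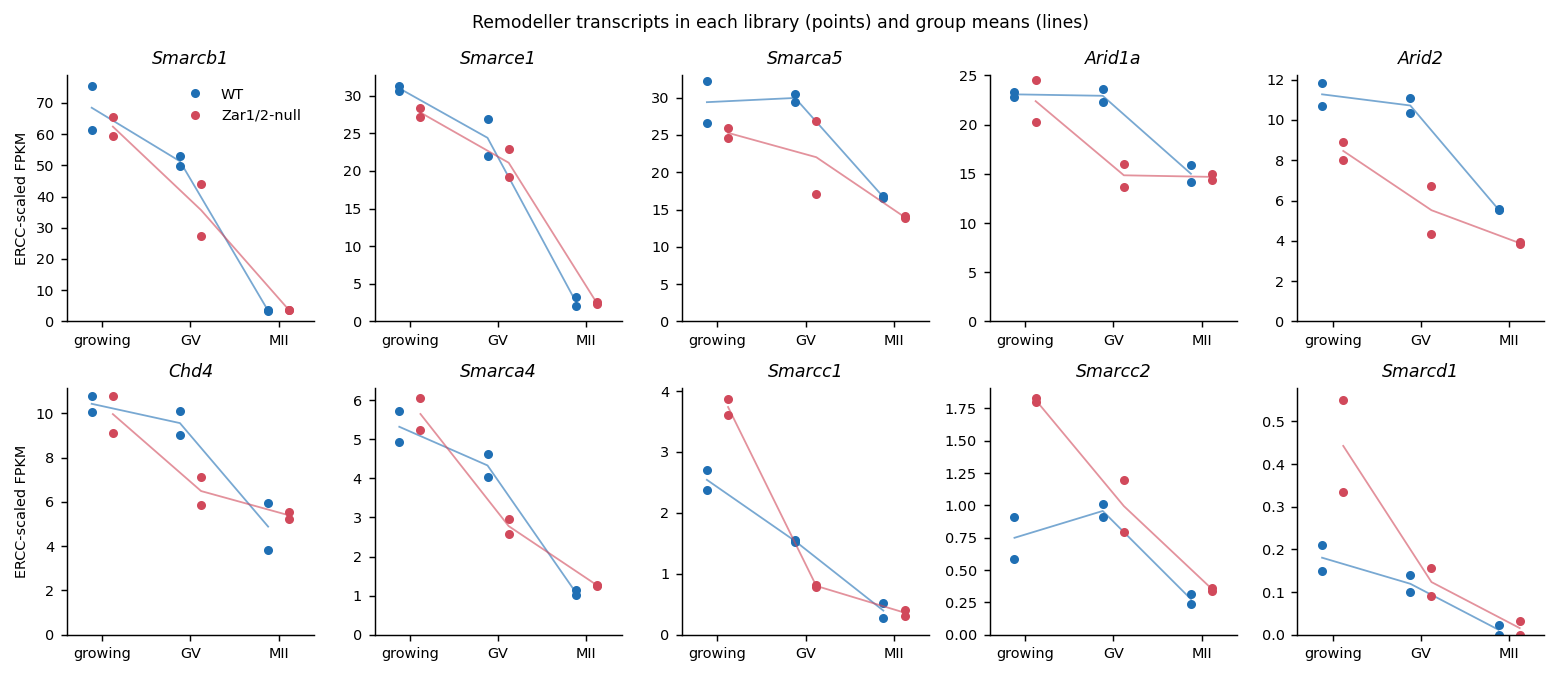
Level of each of the 10 members in ERCC-scaled FPKM (vertical axis, from 0, a separate scale per gene) by stage, with 1 point per library, 2 libraries per group and lines through group means, blue for WT and red for Zar1/2-null. Smarcb1 and Smarce1 dropped steeply between GV and MII in both genotypes, while Smarcc1 and Smarcc2 stood higher in null than in WT growing oocytes.

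Paralogs with related roles were measured in the same libraries. Smarca2, the other SWI/SNF ATPase, was at 129 and 130 FPKM in the WT growing libraries, 98.4 and 79.6 at GV and 7.17 and 9.41 at MII, in each WT library above Smarca4. Smarcd2, a paralog of Smarcd1, was at 37.3 and 41.9 FPKM in WT growing oocytes, where Smarcd1 was at 0.211 and 0.1498 FPKM. Chd3, the other main NuRD ATPase, and Smarca1, the other ISWI ATPase, stayed below 1 FPKM in every library.

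In annotation of the mm9 build (NCBIM37), the longest coding transcripts of the members ran from 1660 bases for Smarcb1, with 9 exons on chr10:75359514-75384362, and 2919 bases for Smarce1, with 11 exons on chr11:99070361-99092331, to 8190 bases for Arid1a, with 20 exons on chr4:133234923-133312684, and 9029 bases for Arid2, with 21 exons on chr15:96117953-96235894. ZAR1 and ZAR2 act on RNA, and the 3′ untranslated region (3′UTR) of oocyte transcripts is where cytoplasmic polyadenylation elements (CPEs) are read. The CPE letters TTTTAT or TTTTAAT, searched on the transcript strand only, were present somewhere in the 3′UTR of 8 of the 10 members, and in 60.2% of the 10609 kept genes with a model. Smarca4 and Smarcb1 had none. Within the last 100 bases they were found in Smarcc2 and Smarcd1 alone, against 20.1% of the kept genes whose 3′UTR held at least 100 bases. These are matches of letters and were not shown to act. The match nearest the 3′ end is shown for the pair with one in the last 100 bases. It is also shown for Chd4, Smarce1 and Arid1a, as examples of matches further from the end. Each window of 30 bases lies in 1 exon, with the CPE letters in capitals, on the strand of the gene in NCBIM37. In the Smarcd1 window the polyadenylation hexamer AATAAA overlaps the CPE letters.
Smarcc2, chr10:127927190-127927219, plus strand: ttttccttttttTTTTATaaattaatttgc
Smarcd1, chr15:99544385-99544414, plus strand: gatgtcacccagTTTTAATaaaagacttct
Chd4, chr6:125080452-125080481, plus strand: ctgttggcatctTTTTAATaccaggaaccc
Smarce1, chr11:99071299-99071328, minus strand: ttttttttttggTTTTAATggtgttatgtg
Arid1a, chr4:133235868-133235897, minus strand: tttcataactgtTTTTAATggttaaaaaaa
The letters ended 22 bases from the transcript end in Smarcc2, 23 in Smarcd1, 139 in Chd4, 949 in Smarce1 and 956 in Arid1a.

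The first comparison asked which members changed when growing oocytes lacked ZAR1 and ZAR2. Smarcc1 and Smarcc2, the paralogous scaffold subunits of SWI/SNF complexes, were higher in the null and no member was lower, at an adjusted p under 0.05 in limma with Benjamini-Hochberg adjustment over all kept genes, where 10.6% of genes were called higher and 24.4% lower. Smarcc1 was at 2.70 and 2.38 FPKM in WT and 3.60 and 3.87 FPKM in null libraries. The groups did not overlap, and the log2 fold change of FPKM + 1 was 0.42 (SE 0.13, n = 2 per group, limma adjusted p = 0.0236). Smarcc2 was at 0.913 and 0.587 FPKM in WT and 1.83 and 1.80 FPKM in null libraries. The null libraries were again the higher, with a log2 fold change of 0.69 (SE 0.14, limma adjusted p = 0.00270).

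The call of Smarcc2 held without the ERCC scaling (adjusted p = 0.00549 in limma) and with libraries scaled to an equal median (0.0118), whereas Smarcc1 held without ERCC scaling (0.0369) but not with median scaling (0.0589). The Smarcc1 call was also lost without WT growing replicate 2 (limma adjusted p = 0.109) and without null growing replicate 2 (0.101). The summed granulosa markers were lower in the null growing libraries, as given above, and their part in these differences was not tested. Cyp19a1 was the largest part of that sum, at 19.0 and 16.7 FPKM in WT growing and 7.72 and 2.53 FPKM in null growing libraries. Of the 16 markers, 3 averaged at least 1 FPKM in WT growing and 2 in null growing oocytes, and Amh was not detected in any growing library. Smarcd1, a further SWI/SNF subunit too low for the fit, was at 0.334 and 0.551 FPKM in null libraries.

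By overlap of libraries alone, 2 members were higher (22.4% of kept genes) and 3 were lower (47.4%), namely Arid2, Smarca5 and Smarce1, none of which passed the test. The log2 fold changes of Smarca5 (-0.20) and Smarce1 (-0.15) turned to 0.07 and 0.12 without ERCC scaling. Kept genes called higher and lower numbered 1224 and 2801, then 1711 and 1412 without ERCC scaling, and 1230 and 1473 with median scaling, and the all-gene median was -0.16, 0.08 and -0.01. Arid2, the subunit that marks the PBAF form of SWI/SNF, was at 11.9 and 10.7 FPKM in WT and 8.03 and 8.90 FPKM in null libraries. They did not overlap, but the log2 fold change of -0.37 did not pass the test (SE 0.17, limma adjusted p = 0.109). It was called lower in limma when null GV replicate 1 (adjusted p = 0.0318) or null GV replicate 2 (0.0321), which enter the shared spread, was left out. The libraries of Chd4, at 10.1 and 10.8 FPKM in WT and 9.12 and 10.8 FPKM in null, overlapped, as did those of Smarca4, Smarcb1 and Arid1a.

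In GV oocytes the comparison gave 6 members lower in the null and none higher, when 40.6% of kept genes were called lower and 2.83% higher. The 6 were the ATPases Smarca4 and Chd4, the core subunits Smarcb1 and Smarcc1 and the targeting subunits Arid1a and Arid2. The median log2 fold change of the 9 members was -0.50, and that of all kept genes was -0.38, so the members' shift lay close to that of the transcriptome. The all-gene median moved to -0.03 without the ERCC scaling and to 0.07 with median scaling, and under either of these no member was called. Kept genes called higher and lower numbered 325 and 4666 with ERCC scaling, 827 and 1554 without it, and 1119 and 1072 with median scaling. Libraries did not overlap for 7 members, all lower in the null, against 63.6% of kept genes lower and 6.79% higher.

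Arid2 had the largest decrease of the members at GV on the log2 scale of FPKM + 1. By the ratio of group means the drop was 1.94-fold for Arid2 and 1.92-fold for Smarcc1, which lies near 1 FPKM. Arid2 was at 11.1 and 10.4 FPKM in WT and 6.72 and 4.32 FPKM in null libraries. The groups were apart, with a log2 fold change of -0.87 (SE 0.17, limma adjusted p = 0.00215), which lay 0.49 log2 units below the all-gene median and was -0.49 without ERCC scaling and -0.33 with median scaling. Arid1a, the subunit that marks the BAF form of SWI/SNF, was at 23.6 and 22.3 FPKM in WT and 16.0 and 13.7 FPKM in null libraries. They did not overlap, and the log2 fold change was -0.60 (SE 0.15, limma adjusted p = 0.00760). Calls of Arid1a, Arid2 and Smarcc1 were kept when any 1 of the 12 libraries was left out.

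Among the ATPases, Smarca4 was at 4.04 and 4.61 FPKM in WT GV and 2.97 and 2.58 FPKM in null GV libraries, a log2 fold change of -0.50 (SE 0.13, limma adjusted p = 0.0122). The groups did not overlap, but the call was lost without WT GV replicate 2 (limma adjusted p = 0.0605) or null GV replicate 2 (0.0565). Chd4 was at 9.004 and 10.1 FPKM in WT and 7.10 and 5.88 FPKM in null libraries. Its log2 fold change of -0.50 (SE 0.18, limma adjusted p = 0.0437) turned to 0.03 with median scaling, and the call was lost in 10 of the 12 leave-one-out fits, up to 0.183 without null GV replicate 2. Smarca5 was at 30.5 and 29.4 FPKM in WT and 26.9 and 17.1 FPKM in null libraries, and its log2 fold change of -0.46, which turned to 0.11 with median scaling, did not pass (SE 0.19, limma adjusted p = 0.0692). The null libraries of Smarca5 were far apart, and without null GV replicate 1 the change was -0.77 (limma adjusted p = 0.00552).

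Of the core subunits at GV, Smarcc1 and Smarcb1 were called and Smarce1 and Smarcc2 were not, and differences between subunits were not tested. Smarcc1 was at 1.52 and 1.55 FPKM in WT and 0.780 and 0.823 FPKM in null libraries, a log2 fold change of -0.49 (SE 0.13, limma adjusted p = 0.00914). Smarcb1, which sits on the nucleosome face, was at 49.7 and 52.9 FPKM in WT and 27.4 and 43.9 FPKM in null libraries. These did not overlap, yet the log2 fold change of -0.55 (SE 0.20, limma adjusted p = 0.0457) turned to 0.03 with median scaling, and the call was lost in 11 of the 12 leave-one-out fits. Without null GV replicate 1 it was -0.22 (limma adjusted p = 0.337). Smarce1, a DNA-binding core subunit, overlapped between genotypes at 26.8 and 22.0 FPKM in WT and 19.2 and 23.0 FPKM in null, and its log2 fold change of -0.20 (limma adjusted p = 0.359) turned to 0.24 without ERCC scaling. Smarcc2 was at 1.01 and 0.907 FPKM in WT and 1.19 and 0.797 FPKM in null libraries, which overlapped.

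At MII no member was called by limma between the genotypes, when 21.5% of kept genes were called higher and 10.3% lower. At an unadjusted limma p under 0.05 there was 1 member, Arid2, whose limma adjusted p was 0.0810. Arid2 was at 5.52 and 5.59 FPKM in WT and 3.83 and 3.95 FPKM in null libraries, so the groups did not overlap, with a log2 fold change of -0.42 (SE 0.17). The all-gene median was 0.06 with the ERCC scaling, -0.01 without it and -0.08 with median scaling. Kept genes called higher and lower numbered 2472 and 1183, then 2831 and 2694, then 2716 and 3460. Libraries did not overlap for Arid2 and Smarca5, which were lower in the null (27.8% of kept genes). Nor did they for Smarca4 and Smarcc2, which were higher (43.5%), with log2 fold changes of 0.12 and 0.09 that did not pass the test. That of Smarca4 turned to -0.0099 without ERCC scaling and -0.11 with median scaling, and that of Smarcc2 to -0.0011 with median scaling. Arid2 was called lower without ERCC scaling (-0.72, limma adjusted p = 0.0152), with median scaling (-0.83, 0.00266), and when null GV replicate 1 (0.0193) or null GV replicate 2 (0.0196) was left out of the shared spread.

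With median scaling 3 other members were called lower at MII, namely Smarca5 (-0.61, limma adjusted p = 0.0262), Arid1a (-0.39, 0.0438) and Smarce1 (-0.41, 0.0447). On the ERCC scale Smarca5 was at 16.6 and 16.8 FPKM in WT and 13.8 and 14.2 FPKM in null libraries. Arid1a was at 14.1 and 15.9 FPKM in WT and 14.4 and 14.97 FPKM in null libraries, which overlapped, with means of 15.01 and 14.7 FPKM. Smarcb1 was at 3.24 and 3.64 FPKM in WT and 3.54 in both null libraries. By the 3-fold rule of the study on group means with a floor of 1 FPKM, no member passed in any of the 3 genotype comparisons. In growing oocytes this rule took 0.982% of kept genes as higher and 3.54% as lower, at GV 0.461% and 4.20%, and at MII 7.49% and 1.32%.

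**Figure D2:**
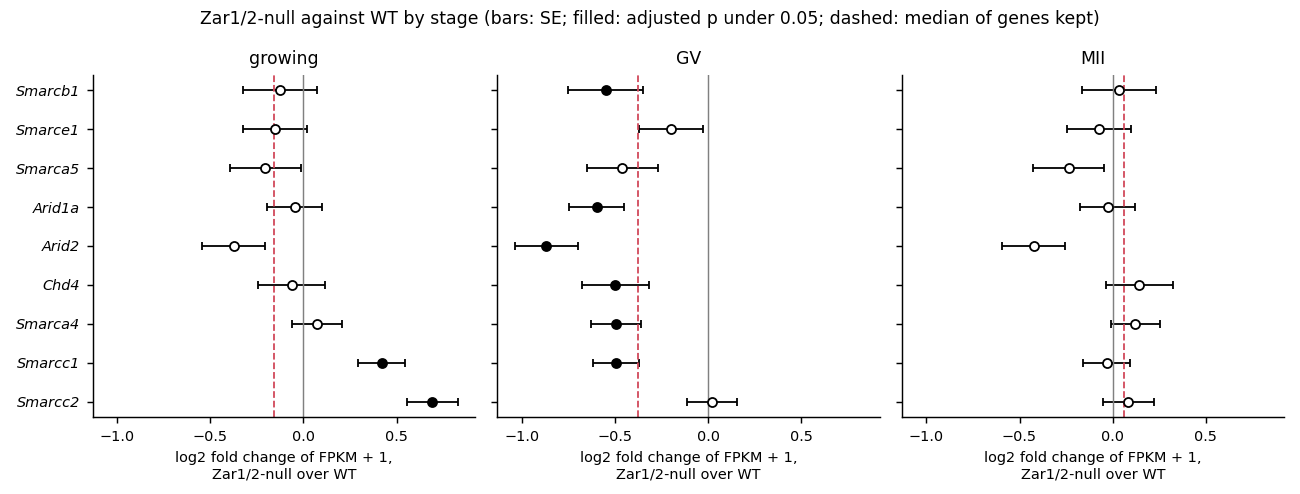
Log2 fold change of FPKM + 1 in Zar1/2-null over WT oocytes (horizontal axis) for 9 members at 3 stages, with bars of 1 SE, filled points where the limma adjusted p was under 0.05 and a dashed line at the median of the 11502 kept genes. At GV 6 points are filled and most lie near the dashed line at -0.38. With median scaling the GV values of Smarcb1, Smarca5 and Chd4 change sign, that of Smarce1 also does so without ERCC scaling, and several small values in growing and MII oocytes that did not pass the test change sign too.

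Whether the effect of the null genotype differed between stages was tested as a difference of differences. Between GV and growing oocytes, 2 members were called lower, Smarcc1 at -0.91 (SE 0.18, limma adjusted p = 0.00925) and Smarcc2 at -0.67 (SE 0.19, 0.0418), where 11.3% of kept genes were called lower and 2.58% higher. Between MII and GV, Smarca4 was called higher at 0.62 (SE 0.19, limma adjusted p = 0.0273), where 33.9% were called higher and 0.643% lower, but it turned to -0.08 with median scaling. The all-gene medians of these differences were -0.23 and 0.48 with ERCC scaling, and -0.12 and 0.03 without it. Kept genes called higher and lower went from 297 and 1301 to 255 and 428 without ERCC scaling and 257 and 192 with median scaling in the former, and from 3903 and 74 to 1742 and 743 and to 1557 and 1808 in the latter. None of the 3 calls held without ERCC scaling or with median scaling. The Smarcc2 call was lost in 10 of the 12 leave-one-out fits, with limma adjusted p from 0.0606 without WT GV replicate 2 to 0.104 without WT growing replicate 2. The Smarca4 call was lost without WT GV replicate 2 (limma adjusted p = 0.0646), WT MII replicate 1 (0.0872), null GV replicate 2 (0.0619), null MII replicate 1 (0.0792) or null MII replicate 2 (0.0769).

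Between growing and GV stages in WT oocytes, 1 member, Smarcc1, was lower and none was higher by limma, where 28.7% of kept genes were called lower and 2.77% higher. Smarcc1 went from 2.70 and 2.38 to 1.52 and 1.55 FPKM, a log2 fold change of -0.48 (SE 0.13, limma adjusted p = 0.0171). The call was lost without WT growing replicate 1 (limma adjusted p = 0.0739) or WT GV replicate 2 (0.0705), and under both other scalings, where kept genes called higher and lower went from 319 and 3306 to 421 and 372 without ERCC scaling and 230 and 304 with median scaling. Libraries did not overlap for 4 members, Smarca4, Smarcb1, Smarcc1 and Smarce1, all lower at GV, against 59.5% of kept genes lower and 10.2% higher, and none passed the 3-fold rule (0.591% higher, 0.774% lower). Arid1a, at 23.4 and 22.8 FPKM in WT growing and 23.6 and 22.3 FPKM in WT GV libraries, and Smarca5, Arid2 and Chd4 had overlapping libraries. The comparisons of stages share the GV libraries with each other and with the genotype comparison at GV.

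In the null, 7 members were lower at GV than in growing oocytes by limma, all of those fitted except Smarca5 and Smarce1, where 55.9% of kept genes were called lower and 4.76% higher. Smarcc1 had the largest change, from 3.60 and 3.87 FPKM to 0.780 and 0.823 FPKM, with a log2 fold change of -1.39 (SE 0.13, limma adjusted p = 1.06e-05). It was the only member still called without ERCC scaling (-1.19, limma adjusted p = 0.00135) and with median scaling (-0.77, 0.00309). Smarca4 went from 5.23 and 6.06 FPKM to 2.97 and 2.58 FPKM, with a log2 fold change of -0.81 (SE 0.13, limma adjusted p = 0.000436). The values of Arid1a at -0.56, Arid2 at -0.56 and Chd4 at -0.55 changed sign with median scaling, to 0.16, 0.10 and 0.12. All-gene medians were -0.50 here and -0.29 in WT, -0.08 and 0.02 without ERCC scaling, and 0.07 and -0.01 with median scaling. Kept genes called higher and lower in the null numbered 547 and 6424, then 1646 and 2455 without ERCC scaling, and 2216 and 1635 with median scaling. Libraries did not overlap for 8 members, all lower (68.9% of kept genes, and 9.16% higher), and by the 3-fold rule Smarcc1 alone was lower (7.21%, and 0.739% higher). The count fell to 4 without null growing replicate 2 or null GV replicate 2.

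Maturation from GV to MII brought the widest spread among members. In WT all 9 fitted members were lower at MII by limma, where 93.4% of kept genes were called lower and 0.104% higher, with a median log2 fold change of -0.87 for members and -1.28 for all kept genes. Smarcb1 went from 49.7 and 52.9 FPKM to 3.24 and 3.64 FPKM, a log2 fold change of -3.56 (SE 0.20, limma adjusted p = 1.58e-08). Smarce1 went from 26.8 and 22.0 FPKM to 2.11 and 3.19 FPKM, a log2 fold change of -2.81 (SE 0.17, limma adjusted p = 3.09e-08). Both fell by more than the all-gene median under all 3 scalings. Smarca4 went from 4.04 and 4.61 FPKM to 1.03 and 1.14 FPKM, a log2 fold change of -1.35 that was -0.20 without ERCC scaling and 0.53 with median scaling.

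Arid1a had the smallest decrease of the members on the ERCC-scaled log2 scale of FPKM + 1, followed by Smarcc2 at -0.62, which turned to 0.38 with median scaling. That scale understates the change of Smarcc2, which went from 0.957 to 0.276 FPKM. By the ratio of group means Smarcc2 fell 3.47-fold. This was more than Smarca5 (1.80-fold), Arid2 (1.93-fold) and Chd4 (1.96-fold), and less than Smarcc1 (3.88-fold). Arid1a went from 23.6 and 22.3 FPKM to 14.1 and 15.9 FPKM, a log2 fold change of -0.58 that reversed to 1.12 without ERCC scaling and 2.01 with median scaling. Smarca5 went from 30.5 and 29.4 FPKM to 16.6 and 16.8 FPKM, at -0.81 with ERCC scaling but 0.89 and 1.80 under the other scalings. Arid2 at -0.84 and Chd4 at -0.87 likewise reversed, to 0.77 and 0.71 without ERCC scaling and to 1.60 and 1.53 with median scaling. Counted by scaling, members called higher and lower were 0 and 9 with ERCC scaling, 4 and 2 without it, and 7 and 2 with median scaling, when the all-gene median went from -1.28 to -0.43 and 0.12. Genes called higher and lower numbered 12 and 10747, then 2267 and 5473, then 4811 and 3596. By the 3-fold rule, Smarca4, Smarcb1 and Smarce1 were lower at MII with ERCC scaling, where 44.2% of kept genes were lower and 0.0869% higher. Libraries did not overlap for any of the 9 members, against 97.1% of kept genes lower and 0.200% higher.

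In the null, 6 members were lower at MII than at GV by limma, where 68.7% of kept genes were called lower and 0.209% higher. Smarcb1 went from 27.4 and 43.9 FPKM to 3.54 in both libraries, with a log2 fold change of -2.98 (SE 0.20, limma adjusted p = 1.56e-07). Smarce1 went from 19.2 and 23.0 FPKM to 2.30 and 2.57 FPKM, with -2.68 (SE 0.17, limma adjusted p = 1.06e-07). These kept their direction and call under all 3 scalings. Smarca4 at -0.73, Smarca5 at -0.58, Smarcc2 at -0.55 and Smarcc1 at -0.40 were also called, and each of these changed sign with median scaling, to 0.45, 1.08, 0.12 and 0.27. Arid1a stood at 16.0 and 13.7 FPKM in null GV and 14.4 and 14.97 FPKM in null MII libraries, which overlapped. Its log2 fold change of -0.01 turned to 1.02 without ERCC scaling (limma adjusted p = 0.000412) and 1.65 with median scaling (4.08e-06). Arid2 at -0.39 and Chd4 at -0.22 were not called with ERCC scaling either. They turned to 0.54 and 0.75 without it and to 1.10 and 1.33 with median scaling, and were called higher under both. Members called higher and lower were 0 and 6 with ERCC scaling, 3 and 2 without it, and 5 and 2 with median scaling, and kept genes 24 and 7903, 2248 and 4656, and 4432 and 3131. The all-gene median went from -0.72 to -0.28 and 0.12. Libraries did not overlap for 8 members, all lower (84.6% of kept genes, and 1.23% higher), and the 3-fold rule took Smarcb1 and Smarce1 as lower (27.5%, and 0.113% higher). The Smarca5 call was lost without null GV replicate 1 (limma adjusted p = 0.151), null MII replicate 1 (0.0659) or null MII replicate 2 (0.0556), and that of Smarcc1 without null MII replicate 1 (0.0956).

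The rank of a gene within its own library does not depend on the scaling. Among kept genes, mean percentiles in WT rose between GV and MII from 77.9 to 90.2 for Smarca5, from 73.5 to 89.2 for Arid1a, from 58.9 to 77.6 for Arid2, from 56.6 to 75.4 for Chd4 and from 40.7 to 50.6 for Smarca4. They also rose from 20.9 to 32.6 for Smarcc1 and from 12.4 to 27.3 for Smarcc2. They declined from 84.7 to 70.4 for Smarcb1 and from 74.6 to 65.8 for Smarce1. The sizes of these changes, but not their directions, moved when other sets of genes were ranked, namely all genes or those averaging at least 5 FPKM. In null MII libraries the mean percentile of all 9 fitted members was below that in WT MII libraries, from 68.3 against 77.6 for Arid2 to 25.8 against 27.3 for Smarcc2. The libraries overlapped for Chd4, at 72.8 and 78.0 in WT and 73.2 and 73.8 in null. They also overlapped for Smarcc1, at 29.21 and 35.9 in WT and 23.2 and 29.27 in null. These differences were not tested, and the share of all kept genes with a lower percentile in the null is not given. The count of members therefore cannot be told apart from a shift over all genes.

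**Figure D3:**
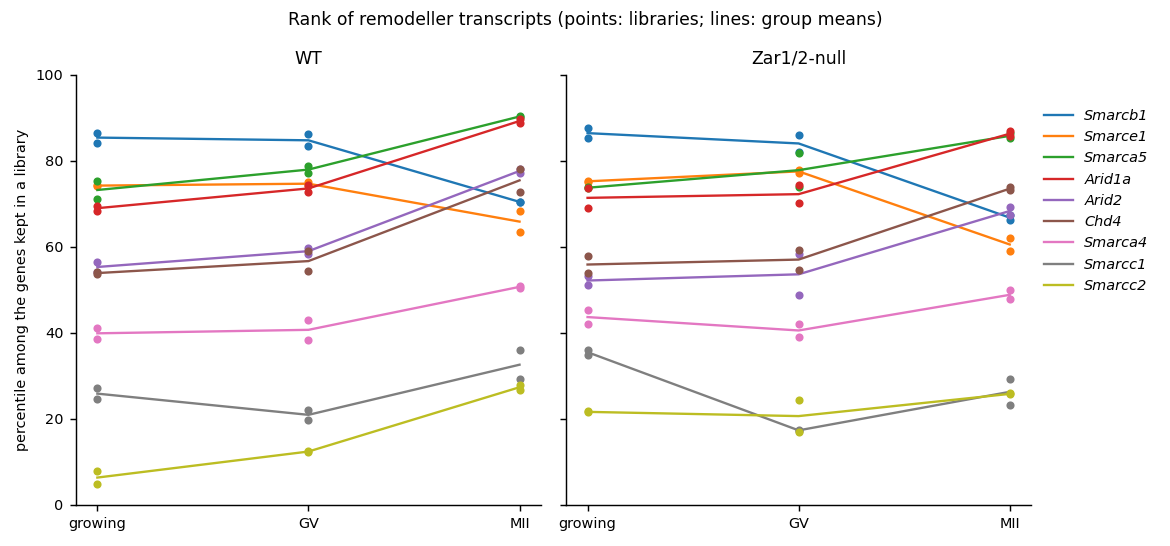
Percentile of 9 members among the 11502 kept genes of each library (vertical axis, 0 to 100) by stage in WT (left) and Zar1/2-null oocytes (right), with points for libraries and lines for group means. Smarca5, Arid1a, Arid2 and Chd4 rise from GV to MII in both genotypes, while Smarcb1 and Smarce1 go down.

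Ratios within a library also cancel its scaling factor. Smarcb1 was 2.11 and 2.38 times as abundant as Arid1a in the WT GV libraries and 0.229 times in both WT MII libraries. In the null the same ratio was 1.71 and 3.21 at GV and 0.246 and 0.236 at MII. The ratio of Arid1a to Arid2 was higher in the null at every stage. It was 1.97 and 2.13 in WT against 2.52 and 2.76 in null growing libraries, 2.13 and 2.15 against 2.39 and 3.16 at GV, and 2.56 and 2.84 against 3.77 and 3.79 at MII. No libraries overlapped, and the log2 differences were 0.36, 0.36 and 0.49, each with a two-sided exact permutation p of 0.333, the smallest that 2 against 2 libraries allow. The ratio of Smarcc1 to Smarcc2 was lower in the null by 0.75 and 0.97 log2 units in growing and GV oocytes without overlap (exact permutation p = 0.333 in each), and by 0.44 at MII with overlap (exact permutation p = 0.667). With 1 FPKM added to both genes, which are near that level, these differences were -0.27, -0.52 and -0.12. Lack of overlap between genotypes was not particular to these ratios. It was also seen for Smarca4 to Chd4 in growing and GV oocytes and for Arid1a to Arid1b in growing and MII oocytes. For Smarca4 to Smarca5 the libraries overlapped in growing and GV oocytes. The share of all gene pairs without overlap is not given.

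The steep decrease of Smarcb1 and Smarce1 went with the 2 shortest transcripts among the fitted members. Over kept genes, the median log2 fold change from WT GV to WT MII was -2.06 for transcripts under 2000 bases, -1.31 from 2000 to 4000, -1.04 from 4000 to 6000 and -0.91 at 6000 bases or more. Spearman's rho between transcript length and this change was 0.57 over the 9 members, 0.45 over 84 other remodeller genes and 0.34 over 10609 genes, as a description across genes of the same libraries. Among members it was 0.77 without ERCC scaling and 0.85 with median scaling. Over the other remodeller genes it was 0.40 and 0.38 under these scalings, and over all genes 0.37 and 0.36. The part of length in the members' changes was not tested.

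**Figure D4:**
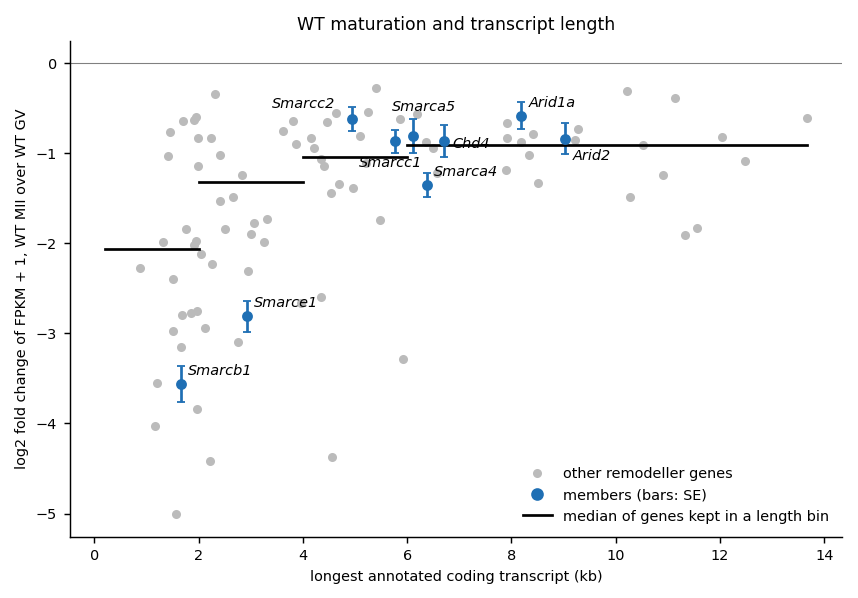
Log2 fold change of FPKM + 1 from WT GV to WT MII with ERCC scaling (vertical axis) against the length of the longest annotated coding transcript in kb (horizontal axis) for 9 members (blue, bars of 1 SE) and 84 other remodeller genes (grey), with black lines at the median of all kept genes in 4 length bins. Smarcb1 and Smarce1 are the shortest and lowest members. Without ERCC scaling Smarca5, Arid1a, Arid2 and Chd4 lie above 0, and with median scaling all members except Smarcb1 and Smarce1 do.

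A wider list of 96 other remodeller genes, of which 95 were in the table and 84 passed the filter, was counted by the same limma fit. In growing oocytes 6 of 84 were higher and 14 lower in the null, beside 10.6% and 24.4% of all kept genes. At GV none was higher and 45 were lower, beside 2.83% and 40.6%. At MII 14 were higher and 15 lower, beside 21.5% and 10.3%. The corresponding medians were -0.13, -0.49 and -0.02, beside -0.16, -0.38 and 0.06 for all kept genes. Between growing and GV none was higher and 19 were lower in WT, beside 28.7% of kept genes lower, and 58 were lower in the null, beside 55.9%. Between GV and MII 81 were lower in WT, beside 93.4%, and 61 in the null, beside 68.7%, again with none higher. These counts moved with the scaling, as given among the limits.

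Hells, a single-subunit remodeller needed for DNA methylation, had the largest decrease of log2(FPKM + 1) of the wider list at GV, from 40.7 and 35.7 FPKM in WT to 10.4 and 11.0 FPKM in null libraries. The log2 fold change was -1.74 (SE 0.14, limma adjusted p = 1.38e-05), and at MII it was -1.88 (SE 0.14, 1.36e-06), in both cases called under all 3 scalings. By the ratio of group means at GV, the low genes Ino80d, from 2.32 to 0.535 FPKM, and Dpf2, from 3.08 to 0.735 FPKM, had larger decreases. Others named by size at GV were Mbtd1 at -1.40, Dpf3 at -1.05 and Shprh at -1.04, of which Mbtd1, a TIP60 complex subunit, was also called under all 3 scalings. Shprh was not called without ERCC scaling or with median scaling (limma adjusted p = 0.0534 and 0.0896), and Dpf3 not with median scaling (0.0698). In growing oocytes Yy1 at 1.22, Cdk2ap1 at 0.96, Chd9 at 0.56 and Phf10 at 0.44 were higher, and Dpf3 at -1.27, Hltf at -1.03, Mbtd1 at -0.91 and Cecr2 at -0.74 were lower. At MII the higher ones were Cdk2ap1 at 1.98, Mcrs1 (from 5.82 to 18.3 FPKM), Ruvbl2 at 1.16 and Pole3 at 1.07, and the lower ones after Hells were Mbtd1 at -1.08, Gatad2b at -1.03 and Brd8 at -0.99. Of these calls, Cdk2ap1 in growing oocytes was lost without WT growing replicate 2 (limma adjusted p = 0.0729) or null growing replicate 1 (0.0508) and with median scaling (0.0635), and Chd9 without WT growing replicate 2 (0.125) or null growing replicate 2 (0.137). Phf10 was lost without any 1 of the 4 growing libraries (0.0780, 0.0916, 0.0529 and 0.107). Gatad2b at MII was lost without WT MII replicate 2 (limma adjusted p = 0.219), null MII replicate 1 (0.106) or null MII replicate 2 (0.0741), and Brd8 without WT MII replicate 2 (0.0700) or null MII replicate 2 (0.1005).

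In WT maturation the wider-list genes with the largest decreases of log2(FPKM + 1), among those averaging at least 5 FPKM at GV, were Dmap1 at -5.01, Ruvbl2 at -4.41, Meaf6 at -4.37 and Tfpt at -4.03, which belong to the INO80, SRCAP and TIP60 family of complexes. Dmap1 went from 88.2 and 80.2 FPKM at GV to 1.19 and 2.21 FPKM at MII. By the ratio of group means the low gene Chrac1, from 4.18 to 0.0641 FPKM, had a larger decrease. Chrac1, Ino80d and Dpf2 were chosen after their values were seen.

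The gene whose log2 level over the 12 libraries was most like that of each member, among 4322 genes averaging at least 10 FPKM, was found by Pearson's r. It was Cdc37 for Smarcb1 (r = 0.999), Ranbp1 for Smarce1 (0.999), Mllt4 for Arid2 (0.993), D17Wsu92e for Smarca4 (0.992), Syvn1 for Smarcc1 (0.981), Helq for Chd4 (0.980), Kdm1a for Smarca5 (0.978), Actn4 for Arid1a (0.966) and Cep120 for Smarcc2 (0.948). The points share the large drop between GV and MII and the library scaling. Between members, r was highest for Smarcb1 and Smarce1 (0.993) and lowest for Smarcc2 and Arid2 (0.539).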

How the data were processed

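The authors trimmed reads, mapped them to mm9 with TopHat2 2.1.1, kept unique reads and quantified UCSC gene models with Cufflinks 2.2.1 (versions from the submitters' processing notes). The deposited values are FPKM that the authors multiplied by an ERCC factor (the ERCC share of WT growing over that of the library). Dividing the recovered factors out gave the unscaled FPKM. The table holds no read counts. The study lists total reads for each library, but reads per gene were not used here, so no counting interval is given.

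Genes with at least 1 FPKM in 1 library were kept. log2(FPKM + 1) was fitted over all 12 libraries with limma 3.58.1 in R 4.3.3 (1 term per group, intensity trend, Benjamini-Hochberg over 11502 genes), which gives a called gene at adjusted p under 0.05. Fold changes on this scale understate those of low genes. The fit was also run on simulated data, with independent noise in each library and changes larger than those of the members between genotypes. That run therefore does not bear on calls of the members' size. Ratios were tested with exact two-sided permutation (scipy 1.17.1). The labels do not say that replicates came from separate animals, so p-values measure the spread between these libraries, which may be technical.

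Alternatives were no ERCC scaling, median scaling, a pseudocount of 0.1, a mean of at least 5 FPKM, no filter, a replicate block, fewer libraries, no trend and leaving out each library. Named genes were the members, Zar1, Zar1l, the paralogs, up to 4 called wider-list genes per direction in each genotype comparison and WT maturation (by size of change, without overlap and with at least 5 FPKM on average where they were higher), and the nearest gene of each member. Members and lists were chosen with earlier results of these data known. Transcript models were GENCODE vM1 and matched 92.2% of kept genes.

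Same-numbered libraries did not deviate together (correlations of deviations from -0.12 to 0.16).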

Additional observations from a re-analysis of the deposited data

Results flagged for a closer look

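The effect of the null genotype on 3 members differed between stages when the difference itself was tested in limma over all 12 libraries. For Smarcc1 the effect at GV minus that in growing oocytes was -0.91 on the log2 scale (SE 0.18, limma adjusted p = 0.00925), since the null libraries were the higher in growing oocytes and the lower at GV. For Smarcc2 the same difference was -0.67 (SE 0.19, limma adjusted p = 0.0418). For Smarca4 the effect at MII minus that at GV was 0.62 (SE 0.19, limma adjusted p = 0.0273), and it was -0.08 with median scaling. Of all kept genes, 11.3% were called lower and 2.58% higher for GV minus growing, with a median of -0.23. For MII minus GV 33.9% were called higher and 0.643% lower, with a median of 0.48. None of the 3 members was called without ERCC scaling or with median scaling.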

How the results depend on the processing

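Without ERCC scaling, members called lower in the null fell to 0 from 6 at GV and rose to 1 from 0 at MII. Members called lower between growing and GV went to 0 from 1 in WT and to 1 from 7 in the null. Between GV and MII, WT counts were 4 higher and 2 lower (0 and 9 before) and null counts 3 higher and 2 lower (0 and 6 before). The stage differences of the null effect gave 0 members in both. With median scaling, members called in the null were 1 higher in growing oocytes, 0 lower at GV and 4 lower at MII. The counts were 0 and 1 lower for the growing to GV step in WT and null, 7 higher and 2 lower for WT maturation, and 5 higher and 2 lower for null maturation. The stage differences gave 0 lower for GV against growing, and 0 higher and 1 lower, Smarce1, for MII against GV. The cause was not tested, although each scaling moves all genes of a library together.

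Of the 63 log2 fold changes of members in the 7 comparisons, 24 changed sign without ERCC scaling and 35 with median scaling, including values that had not passed the test. Among those of called members, of members at GV and of the stage differences that were called, the ones that did so without ERCC scaling were Smarce1 at GV (0.24), Smarca5 (0.89), Arid1a (1.12), Arid2 (0.77) and Chd4 (0.71) in WT maturation, and Smarca5 (0.43) in null maturation. With median scaling they were Smarca5 (0.11), Smarcb1 (0.0296), Smarce1 (0.36) and Chd4 (0.0259) at GV. They were Arid1a (0.16), Arid2 (0.10) and Chd4 (0.12) between null growing and null GV. In WT maturation they were Smarca4 (0.53), Smarca5 (1.80), Smarcc1 (0.36), Smarcc2 (0.38), Arid1a (2.01), Arid2 (1.60) and Chd4 (1.53). In null maturation they were Smarca4 (0.45), Smarca5 (1.08), Smarcc1 (0.27) and Smarcc2 (0.12), and the stage difference of Smarca4 was -0.0760.

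Wider-list counts without ERCC scaling in growing oocytes were 12 higher and 4 lower, those at GV 2 and 9, and 28 lower at MII. They were 1 lower for growing to GV in WT, 4 higher and 17 lower in the null, 28 and 32 for WT maturation, and 20 and 31 for null maturation. With median scaling they were 4 lower in growing oocytes, 5 higher and 5 lower at GV, and 36 lower at MII. They were 2 lower for growing to GV in WT, 7 higher and 11 lower in the null, 47 and 21 for WT maturation, and 41 and 24 for null maturation. By the 3-fold rule WT maturation gave 1 member lower without ERCC scaling, 4 higher and 0 lower with median scaling, and 5 lower with a floor of 0.1 FPKM.

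A pseudocount of 0.1 FPKM gave 1 member higher in growing oocytes, 0 lower for growing to GV in WT and 1 for the stage difference of GV against growing, with 3 higher and 8 lower of the wider list in growing oocytes and 11 lower for growing to GV in WT. A filter on a mean of 5 FPKM leaves out Smarca4, Smarcc1 and Smarcc2. It gave 0 members higher in growing oocytes, 0 and 4 lower for growing to GV in WT and null, 3 lower for null maturation and 0 for the stage difference. The wider list gave 3 higher and 7 lower in growing oocytes, 29 lower at GV, and 9 and 35 lower for growing to GV in WT and null. A fit on only the libraries compared gave 1 member higher in growing oocytes, 2 lower at GV, 1 lower at MII, 0 and 4 lower for growing to GV in WT and null, and 1 for the stage difference. Its wider-list counts were 2 higher and 9 lower in growing oocytes, 28 lower at GV and 12 lower for growing to GV in WT. With no filter 1 member was called for the stage difference of GV against growing, and the wider list gave 9 lower in growing oocytes, 8 at MII and 10 for growing to GV in WT. With no trend the stage differences gave 1 member lower and 2 higher. The share of all genes called is not given for these settings or for the leave-one-out fits. A change in these counts therefore cannot be told apart from a change over all genes. The number of wider-list genes left by the filter on a mean of 5 FPKM is not given either.

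Leaving out 1 library at a time, members called ranged from 1 to 2 higher and 0 to 1 lower in growing oocytes, 3 to 5 lower at GV, 0 to 1 lower at MII, 0 to 2 and 4 to 8 lower for growing to GV in WT and null, 1 to 3 for the stage difference of GV against growing and 0 to 3 for that of MII against GV. Wider-list counts ranged from 2 to 7 higher and 7 to 16 lower in growing oocytes, 0 to 1 higher and 28 to 46 lower at GV, 8 to 16 higher and 5 to 16 lower at MII, 6 to 20 lower for growing to GV in WT, and 0 to 1 higher for it in the null. Small values changed sign for Smarcc2 at GV (-0.12 to 0.16), Smarce1 at MII (-0.29 to 0.14) and Arid1a at MII (-0.11 to 0.0519).

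With the replicate number as a block, 6 members and 45 wider-list genes were called lower at GV and no call on a member or named gene changed, but the labels tie the numbers to nothing. The correlation of same-numbered deviations was 0.16 in growing, -0.12 at GV and 0.09 at MII. Crossing the null GV numbers, chosen after seeing the data as were the ratios of Smarcb1 and Smarce1 to other members, gave 6 members and 49 wider-list genes lower at GV. The files hold no read counts, so no counting error was computed for the low members Smarcc2 and Smarcd1.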
